A study of Mus musculus with 14 samples.

Results

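Hey2, Mycn, Fstl4 and Casz1 are genes of the compact layer, the dense outer muscle of the ventricle wall, and binding of the transcription factor PRDM16 was measured at the regions assigned to them. A region belonged to a gene when the summit of a wild-type (WT) PRDM16 peak had that gene as its nearest protein-coding gene in GRCm38, by distance to the gene body. This gave 29 of 17587 regions, of which 3 belonged to Hey2, 4 to Mycn, 9 to Fstl4 and 13 to Casz1. The series holds 14 samples of C57BL/6 mouse hearts at E13.5 (E counts embryonic days), assayed by chromatin immunoprecipitation and sequencing (ChIP-seq), 7 with an antibody against PRDM16 and 7 as inputs. Ventricles with the atria removed, pooled from 3 hearts a sample, gave 2 WT libraries (genetic manipulation labelled Mock) and 1 library of the Prdm16 conditional knockout (Prdm16cKO), with matching inputs. From WT embryos, left ventricles (LV) and right ventricles (RV) were also taken separately, each with 2 PRDM16 libraries and 2 inputs, pooled from 10 to 12 ventricles a sample. Which Cre line made the knockout, and so which cells lost Prdm16, the labels do not say.

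PRDM16 is a zinc-finger protein that binds DNA and recruits corepressors and histone-modifying complexes, and the title of the study places it in the compact myocardium of the left ventricle. The ventricle wall forms from an inner trabecular layer, which matures early and conducts, and an outer compact layer, which keeps dividing and thickens the wall. Hey2 encodes a basic helix-loop-helix repressor downstream of Notch that marks compact cardiomyocytes. Mycn encodes N-MYC, a driver of growth and division in the compact layer. Casz1 encodes a castor zinc-finger factor needed for heart development, and Fstl4 a follistatin-like glycoprotein.

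The libraries have to be described before the values. The LV pair, lettered A and B, held 330443 and 184244 reads inside WT peaks, and the RV pair, lettered likewise, 281797 and 267808, with a median of 6 to 10 reads a region. The letters only tell the libraries of a ventricle apart and match no replicate number of the labels. At 3 regions of Hey2 and Mycn, LV library A, and at Hey2 also RV library B, held many times the reads of the other library of its ventricle. Whether those extra reads come from DNA bound by PRDM16 was not tested, so they are given as reads and not as binding. The knockout list served to check the antibody: it holds 330 peaks, none of them nearest to any of the 4 genes. The hepatocyte genes Alb, Afp, Apoa1 and Ttr and the erythroid genes Hba-a1, Hbb-bt and Alas2 were nearest to 0 WT peaks. Of all 21896 protein-coding genes 32.5% were nearest to any, so counts of 0 at so few genes tell little about other cells. Each library mixes all cells of its tissue, so that binding in fewer cells and less binding per cell cannot be told apart.

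Of the 4 genes, Mycn alone had a WT peak across its annotated start. Its 463 bp peak (chr12:12941612-12942074) had its summit 9 bp inside the gene and covered 238 of the 250 bases before the start. That stretch is shown because the peak covers most of it, though the summit and the part of the peak inside the gene lie outside it. The same stretch of Hey2 is shown because the Hey2 peak begins just inside the gene, past its start. Both are from RefSeq (GRCm38.p6), read 5′ to 3′ on the minus strand, with capitals at the words found.
Mycn, chr12:12941837-12942086: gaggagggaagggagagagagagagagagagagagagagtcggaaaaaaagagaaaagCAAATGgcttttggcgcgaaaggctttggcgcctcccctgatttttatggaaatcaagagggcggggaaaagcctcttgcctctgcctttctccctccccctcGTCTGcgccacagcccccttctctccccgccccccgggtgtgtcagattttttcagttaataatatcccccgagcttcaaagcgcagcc
Hey2, chr10:30842784-30843033: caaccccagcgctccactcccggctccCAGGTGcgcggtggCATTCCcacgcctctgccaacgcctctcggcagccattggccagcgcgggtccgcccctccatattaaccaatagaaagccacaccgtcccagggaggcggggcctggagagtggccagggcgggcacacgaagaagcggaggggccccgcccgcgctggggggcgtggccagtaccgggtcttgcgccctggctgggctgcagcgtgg

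The words searched, on both strands, were AGATAA for GATA factors, GGAATG for TEAD factors, AGGTGT for T-box factors, AAGTG for Nkx2-5 and CAGAC for SMAD proteins. Added to them were the E-box CANNTG and its special form CACGTG, which HEY and MYC proteins bind. The Mycn stretch held 1 E-box and 1 SMAD word, and the Hey2 stretch 1 E-box and 1 TEAD word. Among 32851 promoters of the table, 66.2% held an E-box, 42.2% a SMAD word and 12.6% a TEAD word, so these are common words. All 4 genes matched the table, Casz1 with 2 promoters. Fstl4 held 3 E-boxes, 2 SMAD words and 1 T-box word, overlapping in part, and its G and C content was 72.8% (Hey2 71.6%, Mycn 54.8%, median of all promoters 52.4%). Neither the GATA word nor the special E-box was in any of the 5 windows.

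Peak number separated the genes. Casz1 had 13 WT peaks, a count reached by 83 of 7127 genes with a peak (1.16%), and Fstl4 had 9, reached by 247 genes (3.47%). Mycn with 4 and Hey2 with 3 were reached by 1372 and 2095 genes, where the median gene with a peak had 1 and 32.5% of 21896 protein-coding genes had any. This order depended on weak peaks: with fold enrichment limited to 5 or more, Casz1 kept 2, Fstl4 6, Mycn 2 and Hey2 2. Casz1 peaks were also dense, at 5.99 per 100 kb of the sequence nearest to the gene, against 1.41 at Fstl4, 1.16 at Hey2, 0.948 at Mycn and 0.646 over the genome. These densities count the weak peaks too, and those of other genes with a peak are not given. Genes most like them, with the same number of peaks and the closest median fold enrichment, were Kcne1 and Rdm1 for Hey2, Pdik1l and Ifng for Mycn, Myh7 and N6amt1 for Fstl4, and Csnk1g3 and Zfp521 for Casz1.

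**Figure D1:**
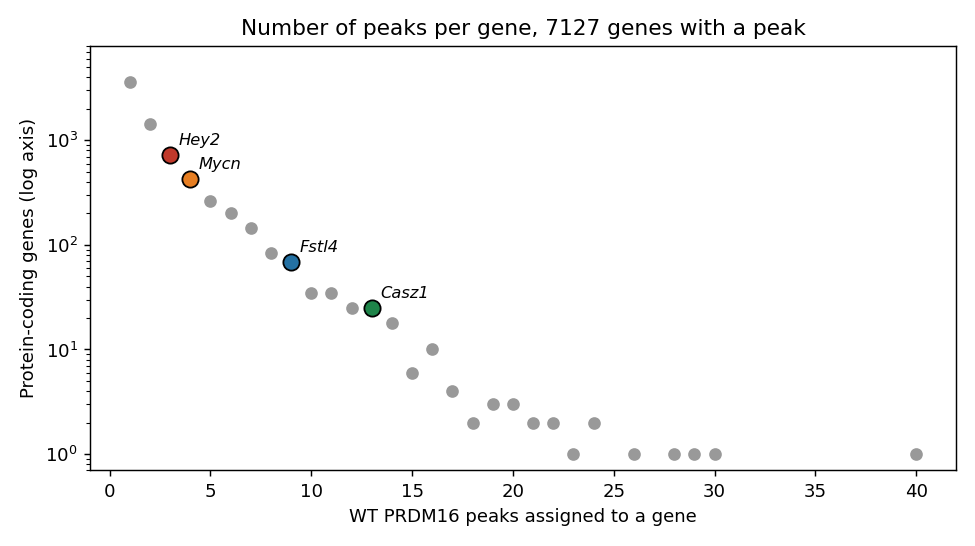
Number of protein-coding genes (log axis) against the number of WT PRDM16 peaks assigned to a gene, with the 4 genes coloured. Casz1 (13) and Fstl4 (9) lie in the sparse right part of the distribution, Mycn (4) and Hey2 (3) in its body.

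The strongest pair of peaks lay far upstream at Hey2, and far upstream and near the far end of the gene at Fstl4. At Mycn the strongest peak lay at the start, and at Casz1 the strongest pair lay inside and upstream of the gene. Fold enrichment, the authors' ratio of ChIP over background at a peak, was highest at Hey2 (12.2, rank 254 of all regions), followed by Fstl4 (10.4, rank 456), Mycn (8.31, rank 979) and Casz1 (7.25, rank 1515). The median over a gene's peaks was 9.39 at Hey2, 5.53 at Fstl4, 4.63 at Mycn and 3.56 at Casz1, where the median of all regions was 4.0. Casz1 thus had the most peaks and the lowest median. No error can be given, since the list holds 1 value a peak for the WT group. Of the 29 regions, 16 (55.2%) lay inside their gene, against 58.8% of all regions, and 10 (34.5%) lay more than 50 kb outside, against 15.6%.

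**Figure D2:**
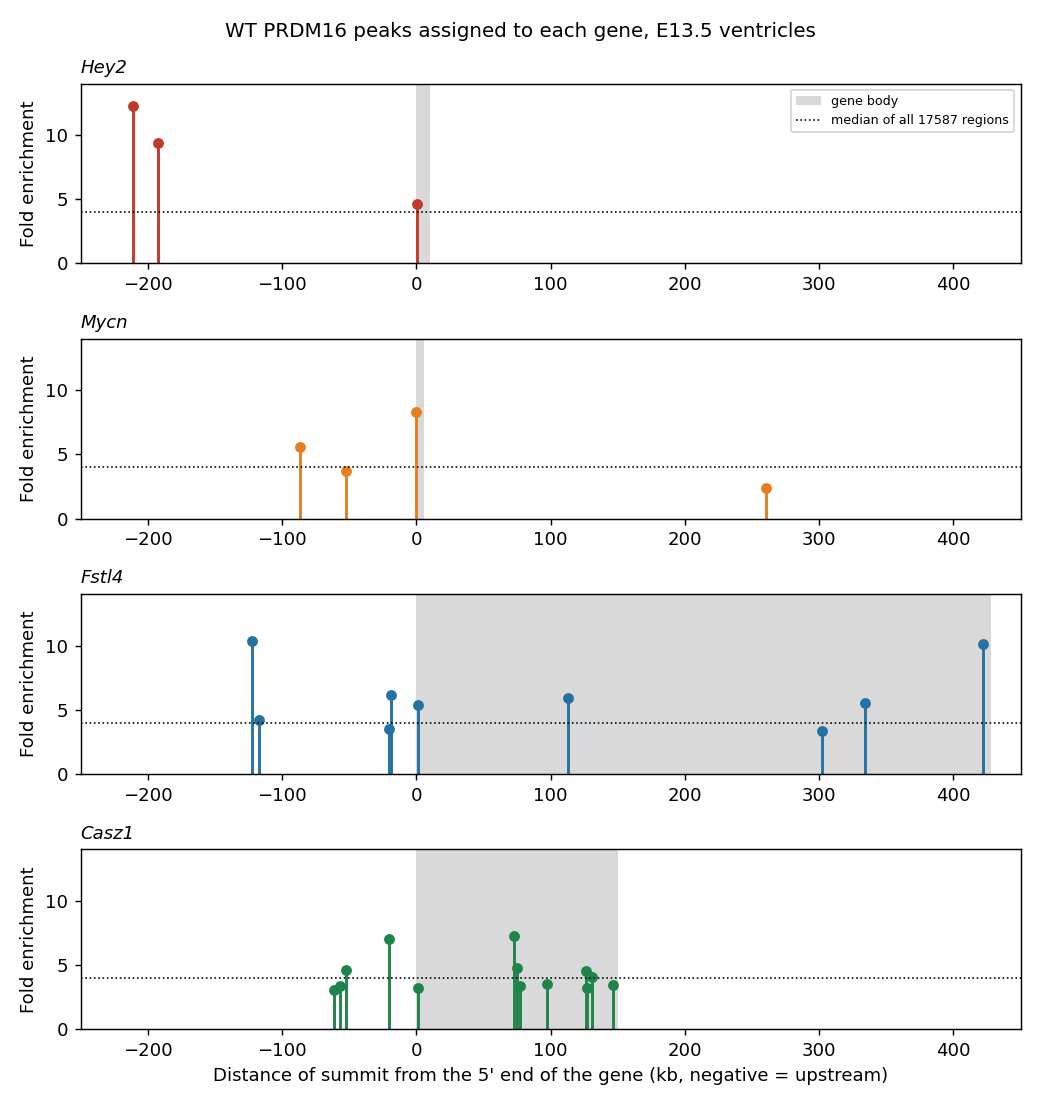
Fold enrichment of each WT peak (vertical axis) at the distance of its summit from the 5′ end of the gene in kb (horizontal axis), 1 panel a gene, with the gene body in grey and the median of all regions dotted. Hey2 has a pair of strong peaks about 200 kb upstream, Fstl4 strong peaks at both far ends, and Casz1 many weak ones.

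At Hey2 the strongest peak (12.2, chr10:31052816-31053853) lay 210.7 kb upstream of the 5′ end, and the next (9.39, chr10:31034760-31035467) 192.3 kb upstream, 18345 bp from it. The weakest (4.66, chr10:30841987-30842367) had its summit 615 bp inside the gene. The next nearest gene of the far pair was Ncoa7, at 245753 and 227408 bp from the summits, on the other side of Hey2. Nearest means distance alone, and which gene these regions act on was not measured.

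At Mycn the other peaks lay 86.4 kb upstream (5.57), 52.2 kb upstream (3.70) and 260.6 kb downstream (2.39, near the lowest of all, at rank 17332). At Fstl4 the strongest peak (10.4, chr11:52641743-52642419) lay 122.3 kb upstream and the next (10.1, chr11:53186342-53186909) 422.0 kb into the gene, 5943 bp from its 3′ end. The next, of 6.16, lay 19.2 kb upstream. None of the Fstl4 peaks reached the annotated start, with the closest at 1.6 kb inside (5.40). At Casz1 the strongest peaks lay 72.8 kb inside the gene (7.25, chr4:148876706-148877557) and 20.3 kb upstream (7.02, chr4:148783672-148784294). The third (4.73, chr4:148878795-148879580) was 75.1 kb inside, in a cluster with the first and with a peak at 77.0 kb (3.39).

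None of the 29 regions overlapped a knockout peak, and the nearest knockout summit to any was 953.787 kb away, from Fstl4. Over all WT peaks 1.12% overlapped one, and a count of 0 in 29 allows up to 10.3%, so that the count at these genes cannot be told from that of all peaks. The knockout was sequenced as a single pool and the lists give 1 value a peak, so WT and knockout were not tested against each other.

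LV and RV values were compared next. At 3 of the 7 regions of Hey2 and Mycn the libraries of a ventricle stood far apart. The Hey2 region inside the gene had 533 reads in LV library A and 22 in LV library B, and 24 reads in RV library A and 515 in RV library B. Its upstream region at 192.3 kb had, in the same order, 840 and 26 in LV and 26 and 744 in RV. LV library A and RV library B were thus high at both, and LV library B and RV library A low. The Mycn region at the start had 812 and 25 reads in LV and 34 and 79 in RV, so that LV library A was high and the other 3 libraries were far lower.

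After scaling by the authors' factors, LV library A was 12.3 times LV library B at the Hey2 region inside the gene, 16.4 times at the 192.3 kb region and 16.5 times at the Mycn start. RV library B was 23.9 and 31.9 times RV library A at the Hey2 regions and 2.59 times at Mycn. A threshold of 8-fold (normalized reads plus 1) at 10 or more reads in the lower library was set after these values were seen. Among all 17587 regions, these 3 passed for LV A over LV B (0.0171%) and the 2 Hey2 regions for RV B over RV A (0.0114%), and no region passed in the opposite direction in either ventricle. Without the limit on reads, 40 regions passed for LV A over LV B and 18 for the reverse. For RV B over RV A 8 passed, and 10 for the reverse. At regions with 10 or more reads in the lower library, the next highest log2 ratio was 1.87 for LV and 1.89 for RV, against 3.58, 4.0 and 4.01 for LV and 4.51 and 4.93 for RV at the regions named.

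**Figure D3:**
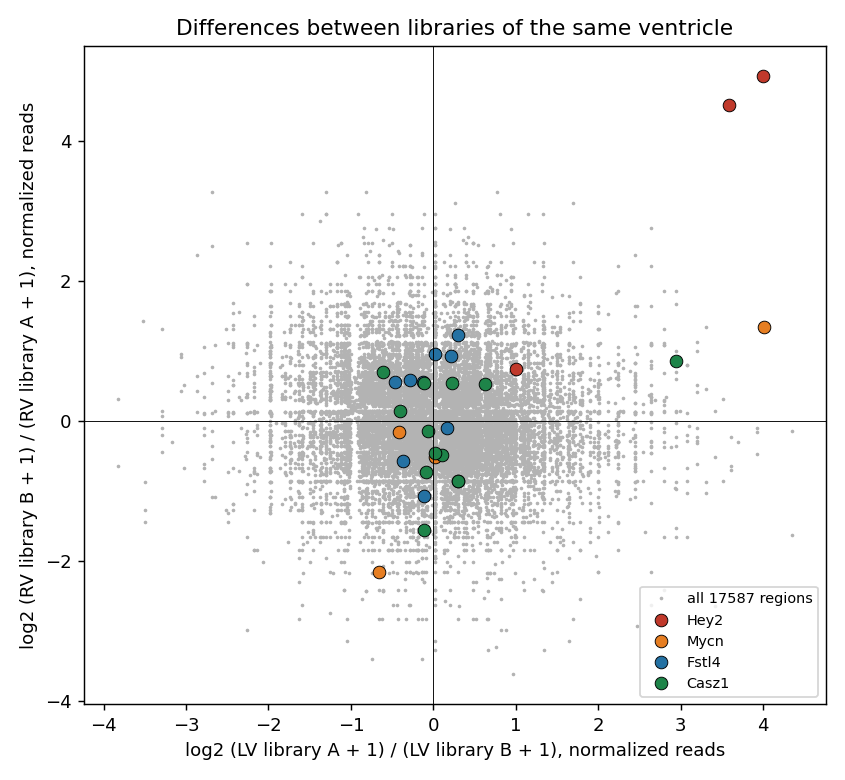
Log2 ratio of the LV libraries (A over B, horizontal) and of the RV libraries (B over A, vertical) at every region, from normalized reads plus 1, with the regions of the 4 genes coloured. The Hey2 points at 3.58 and 4.51 and at 4.0 and 4.93 stand alone in the upper right, and the Mycn start lies at 4.01 and 1.34.

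The WT peak list of whole ventricles did not rank these regions so high. Among the 200 regions closest in fold enrichment to the Hey2 region inside the gene, the median was 10.0 reads in LV library A with a maximum of 59, and 9.0 in RV library B with a maximum of 34, against 533 and 515. For the 192.3 kb region the 200 closest had a median of 40.0 and a maximum of 305 in LV library A, against 840, and for the Mycn start a median of 28.5 and a maximum of 117, against 812. In the other libraries the gap was far smaller, but it did not always vanish. In LV library B the Hey2 region inside the gene had 22 reads, above all 200 of its like (median 5.5, maximum 21). The 192.3 kb region there had 26 beside a median of 18.0 and a maximum of 135. In RV library A the Mycn start had 34 reads beside a median of 25.5 and a maximum of 97. In RV library B the Mycn start had 79 reads, also above all 200 of its like (median 22.0, maximum 76). In all, 45 regions held at least 500 reads in any library, a limit also chosen after the values were seen. The other 42 all overlapped a knockout peak and had at least 247 reads in every library, whereas these 3 overlapped none and had 22 to 34 reads in their lowest libraries.

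**Figure D4:**
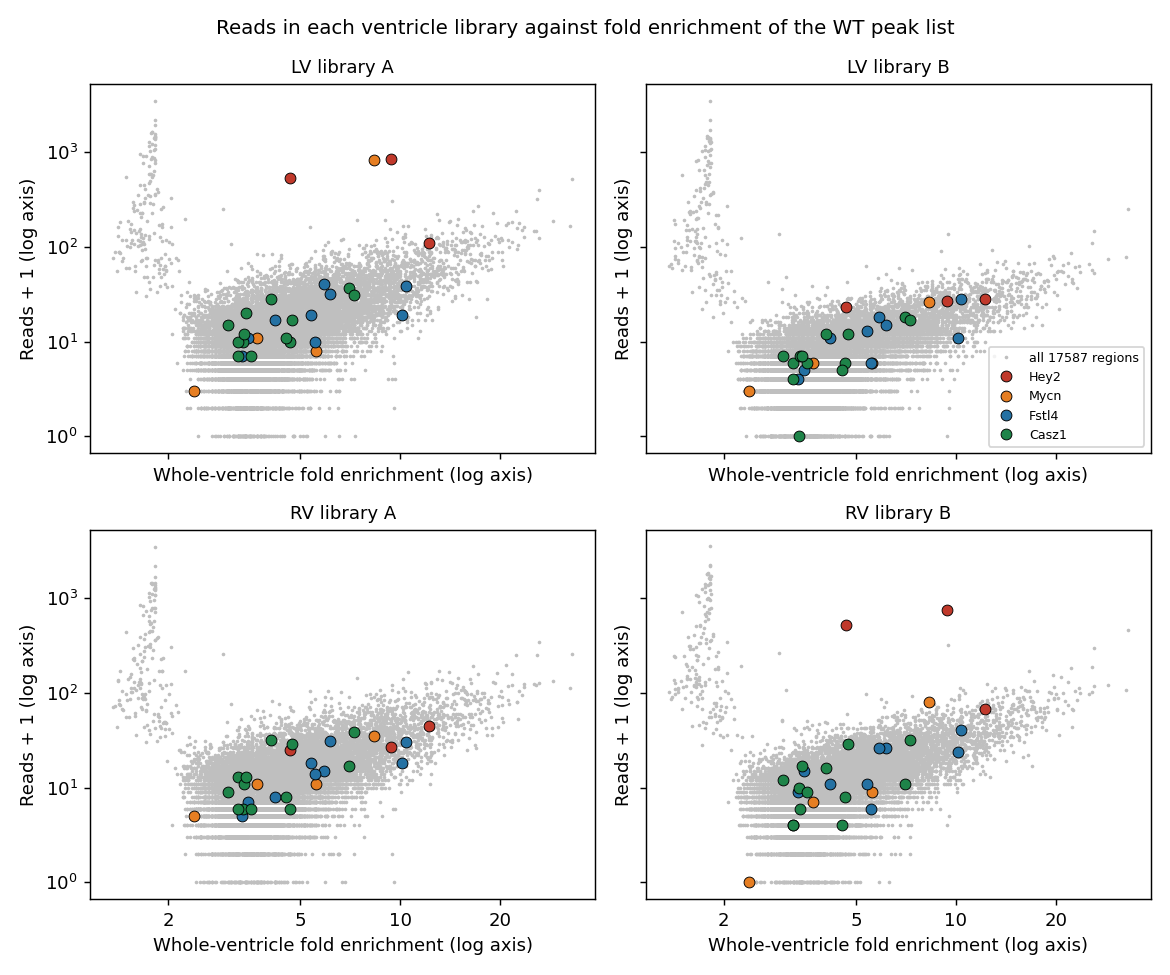
Reads plus 1 in each ventricle library (log axis) against the fold enrichment of the whole-ventricle WT peak list (log axis), 1 panel a library, for all regions in grey and the 4 genes in colour. The 3 regions of Hey2 and Mycn lie far above the cloud in LV library A and the 2 of Hey2 in RV library B, and all lie within it or at its upper edge in LV library B and RV library A.

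The third Hey2 region, 18345 bp from the 192.3 kb region and the strongest of the gene in whole ventricles, had 108 and 27 reads in LV and 44 and 67 in RV. Its log2 ratios were 1.0 for LV A over LV B and 0.75 for RV B over RV A, so the same libraries were the higher ones, by far less. The next peaks on either side, assigned to other genes, did not have both gaps. That on the Ncoa7 side, 29440 bp from Hey2, had 45 and 15 reads in LV and 43 and 24 in RV. That on the Hddc2 side, 386540 bp from Hey2, had 72 and 37 in LV and 27 and 90 in RV. After scaling, RV library B was there well above RV library A, as at the Hey2 regions, and the LV libraries did not differ. What set the 3 regions apart was not tested, and no input reads were used here.

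LV against RV could therefore not be settled at Hey2. limma, a linear model with pooled variance, was fitted to log2 of normalized reads plus 1 at all 17587 regions (n = 2 pools per ventricle), and called 5 of them at an adjusted p under 0.05 (0.0284%) and none of the 29. Positive values are higher in RV. The log2 difference was -0.14 (SE 0.804, 95% interval -1.78 to 1.5) at the region inside Hey2, -0.27 (SE 0.880, -2.06 to 1.53) at 192.3 kb and -0.18 (SE 0.350, -0.90 to 0.53) at 210.7 kb. These errors are pooled with those of other regions and understate the gaps between libraries at the first 2. With no mean-variance trend, though still pooled, the SE was 1.45 (-3.45 to 3.17) inside Hey2 and 1.59 (-3.89 to 3.35) at 192.3 kb. Libraries of LV and RV overlapped at all 3 regions. From LV library B and RV library A alone, the values without the high libraries were -0.61, -0.73 and -0.05, with no replicate and no test.

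Summed over its regions, Hey2 had 1481 and 75 reads in LV and 94 and 1326 in RV, and the same fit on sums of all 7127 genes gave a log2 of -0.11 (SE 0.647, adjusted p = 0.995). It called 4 genes (0.0561%), none of them these, and an unadjusted p under 0.05 came at 1 of the 4 genes here, Mycn, against 6.72% of all. The sign and call for Hey2 followed the library left out: limma gave 1.55 without LV library A (adjusted p = 5.0e-07) and 1.87 without RV library A (0.0089), but -1.76 without LV library B (3.5e-09) and -2.09 without RV library B (3.4e-07). Of all genes these fits called 0.351% without LV library A, 0.0842% without LV library B and 0.0702% when RV library A or RV library B was left out. A fit that leaves 1 library in a ventricle assumes that it varies as the others do.

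The higher LV value at the Mycn start rested on LV library A. Its log2 RV over LV was -1.64 (SE 0.626, unadjusted p = 0.0135, adjusted p = 0.671, limma), with -2.59 and an unadjusted p of 0.111 in the authors' deposited table. With no mean-variance trend limma gave a wider error (SE 1.10, 95% interval -4.15 to 0.87, unadjusted p = 0.173). Without LV library A it was 0.37 (adjusted p = 0.757), and without LV library B it was -3.64 (2.4e-17), and LV library B and RV library A alone gave -0.31. Of all regions, limma called 0.512% without LV library A, 0.125% without LV library B and 0% when RV library A or RV library B was left out. The sum over Mycn regions, 831 and 37 reads in LV and 58 and 93 in RV, gave -1.44 (SE 0.473, adjusted p = 0.590), and the 3 regions other than the start summed to 19 and 12 in LV and 24 and 14 in RV, a log2 of 0.084. Those 3 regions were shallow, with 0 to 10 reads a library.

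At Fstl4 and Casz1 the summed reads of the libraries lay close together. Fstl4 summed to 185 and 102 reads in LV and 137 and 159 in RV, or 138 and 149 normalized reads against 119 and 153. The ventricles overlapped, with a log2 of -0.09 (SE 0.210, 95% interval -0.51 to 0.34, limma adjusted p = 0.981). Casz1 summed to 202 and 95 reads in LV and 182 and 149 in RV, or 150 and 139 normalized reads against 158 and 144. Its log2 was 0.06 (SE 0.205, interval -0.36 to 0.47, limma adjusted p = 0.990). These intervals leave out a 2-fold difference of the summed reads in either direction at both genes, while smaller ones remain possible. Their error is pooled with that of other genes, so this holds only if both genes vary between pools as others do.

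Single regions of Casz1 went in opposite directions, none past the threshold. The region 20.3 kb upstream had 36 and 17 reads in LV and 16 and 10 in RV, or 26.8 and 24.9 normalized reads against 13.9 and 9.65. Both LV libraries lay above both RV libraries, with a log2 of -1.09 (SE 0.364, 95% interval -1.84 to -0.35, unadjusted p = 0.0052, adjusted p = 0.582, limma), the smallest p of the 29 regions. The region 75.1 kb inside the gene had 16 and 11 reads in LV and 28 and 28 in RV, or 11.9 and 16.1 normalized reads against 24.2 and 27.0. Here both RV libraries were higher, with a log2 of 0.84 (SE 0.355, interval 0.12 to 1.56, unadjusted p = 0.0245, adjusted p = 0.719, limma). Its neighbour at 72.8 kb, the strongest Casz1 peak, had 22.3 and 23.4 against 32.9 and 29.9 normalized reads, also without overlap (log2 0.44, SE 0.327). The 57.1 kb upstream region had 9 and 0 reads in LV and 5 and 9 in RV, too few to rank the ventricles.

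**Figure D5:**
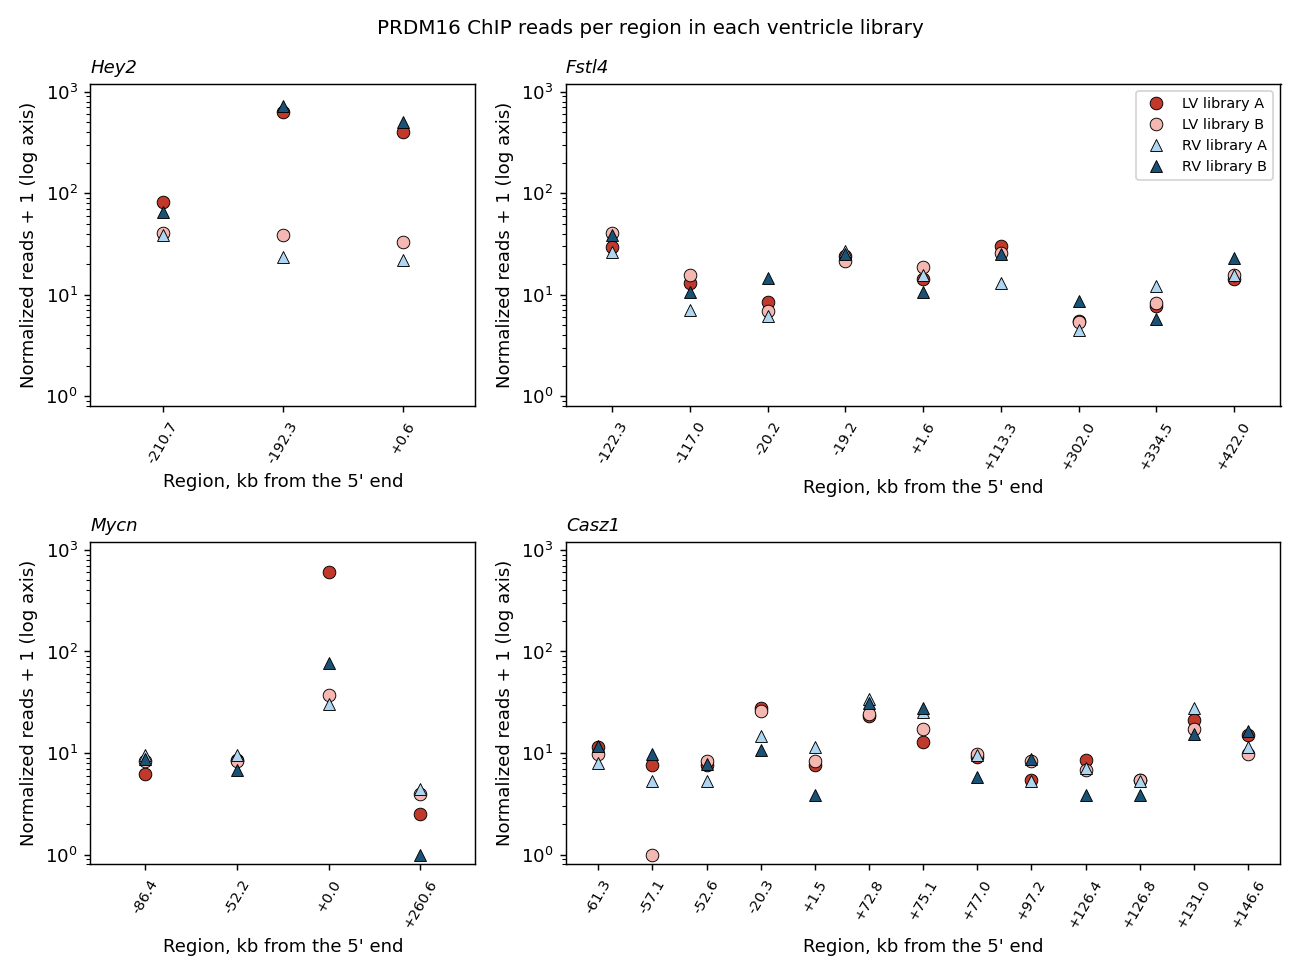
Normalized reads plus 1 (log axis) in each LV library (circles) and RV library (triangles) at every region of the 4 genes, ordered by distance from the 5′ end in kb. No library passes 39.6 normalized reads at any region of Fstl4 or Casz1, while LV library A and RV library B reach 397 to 718 normalized reads at 2 Hey2 regions.

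The main Fstl4 regions showed no split between ventricles past the threshold either. The peak 122.3 kb upstream had 38 and 27 reads in LV and 29 and 39 in RV (log2 -0.12, SE 0.332), with overlap. The region 113.3 kb inside had 39 and 17 in LV and 14 and 25 in RV, and its 2 LV libraries, at 29.0 and 24.9 normalized reads, lay above the RV libraries at 12.1 and 24.1 (log2 -0.62, SE 0.361, limma adjusted p = 0.815). Without RV library A that value was -0.15, and without RV library B it was -1.09. The peaks 19.2 kb upstream and 422.0 kb inside lay higher in RV without overlap, the latter narrowly, by a log2 of 0.19 (SE 0.336) and 0.35 (SE 0.374). The latter was 0.63 without RV library A and 0.067 without RV library B.

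Over all 29 regions, both LV libraries lay above both RV libraries at 4 and the reverse held at 5, where 17.9% and 17.6% of all regions did so. An unadjusted p under 0.05 with limma came at 3 regions, against 6.32% of all regions. With no mean-variance trend it came at 1, where 1021 of all 17587 regions had it. In the authors' deposited table it came at 0, against 0.483% of all. The smallest p there was 0.0809, at the Casz1 region 20.3 kb upstream. The median log2 of the 29 was -0.14, beside 0.01 over all regions. Shares this close to those of all regions give no result about these genes. Reads were simulated at these means over 17587 regions, with a spread between libraries that was set beforehand and not estimated from these data. At regions averaging 8 reads or more limma found 0% of planted 2-fold differences, 44.5% of those of 4-fold and 74.5% of those of 8-fold. In that setting a 2-fold difference at 1 region was thus not detectable. The gaps between libraries at Hey2 and the Mycn start were not part of the set spread.

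Other genes of the compact layer and of growth signalling were listed beside these. Of 12 (Prdm16, Tbx20, Tead1, Yap1, Ccnd1, Ccnd2, Igf1r, Fgfr1, Fgfr2, Rxra, Fkbp1a and Mib1), 9 had a WT peak, with 74 in all and a median fold of 4.10, and Yap1, Ccnd1 and Fkbp1a had 0. Prdm16 itself had 18, Tead1, the DNA-binding partner of YAP, 14, and Tbx20, a T-box factor, 10, of which 1 overlapped a knockout peak. Of 10 trabecular genes 9 had a peak, with 41 in all and a median fold of 4.79, and Cited1 had 0. Over all protein-coding genes 32.5% had a peak, and 1.12% of all WT peaks overlapped a knockout peak. Whether the lists differ from genes of like length was not tested. limma called 0 of the 74 and 0 of the 41 regions between LV and RV. An unadjusted p under 0.05 came on the LV side at 0 regions of the compact list and 3 of the trabecular list (3.13% of all regions), and on the RV side at 3 and 1 (3.18%). Median log2 RV over LV was -0.07 and -0.25.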

How the data were processed

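The files hold peaks of WT ventricles, peaks of knockout ventricles and a comparison of LV with RV over the former. Per the submitters' processing notes, which give no roles, the tools were MACS2 2.1.1.20160309, BWA 0.7.12-r1039, DESeq2 and HOMER, on build mm10 (GRCm38). How replicates were pooled, what was filtered and which test lies behind the comparison are not stated there. The deposited peak lists hold a score, a fold enrichment (ratio), -log10 values of p and q and the summit of each peak. The comparison holds, per the file headers, the signal of LV and RV, log2 mean and log2 fold change (log2 RV over LV), a p-value and a q-value.

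Each deposited LV or RV signal was a mean over the ventricle's libraries of whole reads, each multiplied by that library's factor, to which 0.5 was added, with exactly 1 solution at 100% of regions (largest residual 4.8e-12, tolerance 1e-07). This rests on no label but the ventricle: which library is replicate 1 or 2 is unknown. On simulated LV values, made with the same formula and factors and with single reads placed at a few regions, it gave back the reads of 100% of regions. This shows only that the formula can be inverted, and RV values were not simulated. The factors, 0.744 and 1.47 for LV libraries A and B and 0.866 and 0.965 for RV libraries A and B, equalled the median ratios of reads over regions. Input reads and reads of whole-ventricle libraries were not used here.

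Peaks were assigned to 21896 protein-coding genes of a RefSeq table (GRCm38.p6). Strand came from the promoter table. Overlap meant at least 1 bp. limma 3.58.1 (R 4.3.3) was fitted with a mean-variance trend on log2 of normalized reads plus 1, over all regions and over sums per gene, with Benjamini-Hochberg adjustment and a threshold of 0.05. Python 3.11.15, numpy 2.4.6, pandas 2.3.3 and matplotlib 3.10.9 did the rest. Regions named were the 3 strongest of each gene, those within 1000 bp of a gene end, those overlapping a knockout peak, and the 3 of smallest p on each side of LV against RV. Others named were chosen after their values were seen. The genes and lists were chosen with earlier results of these data known, and a gene of the lists is not reported here. Alternatives were other peak thresholds and distances, pseudocounts, scalings, a minimum of 8 reads, no trend, and each library left out.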

Additional observations from a re-analysis of the deposited data

How the results depend on the processing

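No paired analysis was possible because the LV and RV columns carry no replicate number. Counts of peaks changed with distance and strength: the 29 regions became 19 with summits within 50000 bp of the gene (1 at Hey2 and 1 at Mycn) and 12 with fold enrichment limited to 5 or more (2 at Mycn, 2 at Casz1 and 6 at Fstl4). The count of 0 regions overlapping a knockout peak did not change under the 3 alternatives run. With pseudocounts of 0.5 and 5, scaling to total reads in peaks or no trend, and in the authors' deposited table, 0 of the 29 regions passed, and 0 of the 19 that a minimum of 8 reads left. Scaling by median ratio gave the authors' factors again and so is no separate alternative. Among those settings, where a named region was fitted, its direction changed at 2, the Hey2 regions at 615 bp and 192.3 kb, which are 0.27 and 0.16 in the authors' deposited table. Leaving out 1 library gave 0 to 3 regions and 1 to 2 genes past the threshold, all of Hey2 or Mycn, where without LV A, LV B, RV A and RV B in turn 90, 22, 0 and 0 of 17587 regions and 25, 6, 5 and 5 of 7127 genes passed. Those fits take their error mostly from other regions and genes, so these calls do not measure the spread at Hey2 or Mycn. With 1 library left out, log2 values ran from -2.09 to 1.87 for the sum of Hey2, from -3.18 to 0.30 for Mycn, from -0.27 to 0.10 for Fstl4 and from -0.0093 to 0.12 for Casz1. At single regions they ran from -2.40 to 2.11 (Hey2 at 615 bp), -2.73 to 2.20 (192.3 kb), -0.68 to 0.32 (210.7 kb), -3.64 to 0.37 (Mycn start), -0.30 to 0.20 (Mycn, 52.2 kb), -0.40 to 0.16 (Fstl4, 122.3 kb) and -0.10 to 2.84 (Casz1, 57.1 kb). Alternatives chosen after the data were seen, with no test, were LV library A and RV library B left out together, which gave -0.11 for the sum of Mycn and -0.33 for Fstl4, and Mycn without its start region, which gave 0.084. Depth limits single regions, with a median of 6 to 10 reads a library.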
